A study of Mus musculus with 60 samples.

Results

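The erythropoietin receptor Epor, its kinase Jak2, the transcription factor genes Stat5a and Stat5b, the feedback inhibitors Cish, Socs1, Socs2 and Socs3, and the induced genes Pim1 and Osm were followed in RNA of sorted mouse fetal liver erythroblasts. These 10 genes were taken by symbol from the 23393 named genes of the expression table. Of the 10, 9 had a mean of at least 10 normalised counts over all libraries and were tested, and Socs1 did not reach that level.

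Erythropoietin binds its receptor on red cell precursors, and JAK2, which sits on the inner part of the receptor, then phosphorylates the receptor and the STAT5 proteins, which move into the nucleus and activate genes of survival and growth. Among those genes are Cish and the Socs genes, whose products bind the receptor or JAK2 and damp the signal. Fetal liver erythroblasts depend on this pathway, and GATA1, the factor altered in the embryos studied here, is known to activate the Epor promoter.

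Erythroblasts of C57BL/6 embryos came from wild type or Gata1s mutants, in which GATA1 lacks its N-terminal part, and were taken on embryonic day E12.5 or E14.5. How the mutation was made, and whether livers were pooled, is not given in the sources, and KO stands in the names of the mutant libraries. Cells were sorted into R1/2, with high CD71 and no to low Ter119 (no to medium in the sorting protocol), and the more mature R3, with high CD71 and high Ter119. The series has 60 samples, of which 20 are RNA libraries, 9 wild type and 11 Gata1s. The R1/2 sort had 2 wild type and 4 Gata1s libraries at E12.5 and 2 and 3 at E14.5, and the R3 sort 3 and 2, then 2 and 2.

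Values are normalised counts per gene as the authors deposited them, given per library, and log2 differences are Gata1s minus wild type with their standard error, unless another comparison is named. A gene was called where the limma p-value, adjusted by Benjamini-Hochberg over the 10720 genes tested, was under 0.05. Nothing in the labels ties libraries to separate animals, and p-values therefore reflect only the spread between these libraries, which may be technical. Read totals per library ran from 6.93 to 32.7 M, and 1 read was worth 0.36 to 4.72 normalised counts, most in the wild type E14.5 R3 library of lowest depth. Library names start with JC or MS, whose meaning is not given, and every Gata1s R3 library matched to a sample is MS. The deposited values also hold a JC column of Gata1s R3 at E12.5, which no sample's labels match and which was left out. The prefix was a term of the fit, and values within 1 prefix stand beside the main results. Each wild type group held 1 MS library, in E14.5 R3 that of lowest depth, and each wild type R1/2 group 1 JC library. Values among MS or JC libraries thus rest on 1 wild type library per group. They measure no spread between wild type libraries of the groups compared. Gata1, the mutated gene, ran from 2824 to 3114 in wild type E12.5 R1/2 libraries and from 3475 to 3764 in Gata1s ones, and its value does not separate the short from the full form. Of 10 erythroid markers 9 matched the table, and each of these had reads in every group. Their summed level was 26548 to 84197 in R1/2 and 358144 to 1826122 in R3 libraries. In E12.5 R3, 8 of the 9 erythroid markers were lower in Gata1s, with sums of 358144 to 361981 against 645036 to 942449, and the part of this in the results below was not tested. Fewer cells of a type and less RNA per cell cannot be told apart in these sorted pools.

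Promoter sequences are shown for the members in which the bases next to the start held a searched motif, since Epor is a known GATA1 target and Cish and Socs3 are known STAT5 targets. RefSeq windows of 250 bases before the start (build GRCm38.p6) matched 8 members with 11 windows, and Socs2 and Osm had none. GATAA, the core of the GATA site, was searched on both strands and found in Epor and Cish, and in 22.6% of the 32851 RefSeq windows. TTCNNNGAA, the palindromic core of the STAT site, was found in Socs3 but not in Cish, and in 7.02% of the windows. The motifs cannot overlap in these windows, because no member held both. The Epor match is the reverse complement TTATC, 54 bases before the start, the Cish match begins 228 and the Socs3 match 154 bases before it, and capitals mark the matches. The Epor window lies at chr9:21963577-21963826 on the minus strand, that of Cish at chr9:107296409-107296658 on the plus strand, and that of Socs3 at chr11:117969367-117969616 on the minus strand.
Epor: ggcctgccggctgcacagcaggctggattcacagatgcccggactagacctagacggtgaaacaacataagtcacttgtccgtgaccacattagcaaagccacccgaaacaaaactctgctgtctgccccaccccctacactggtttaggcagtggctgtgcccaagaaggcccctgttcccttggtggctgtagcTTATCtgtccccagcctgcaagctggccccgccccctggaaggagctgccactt
Cish: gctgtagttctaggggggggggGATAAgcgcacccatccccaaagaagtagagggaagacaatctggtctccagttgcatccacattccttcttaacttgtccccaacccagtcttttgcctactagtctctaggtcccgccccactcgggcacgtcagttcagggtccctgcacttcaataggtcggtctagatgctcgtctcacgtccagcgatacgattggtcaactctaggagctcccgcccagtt
Socs3: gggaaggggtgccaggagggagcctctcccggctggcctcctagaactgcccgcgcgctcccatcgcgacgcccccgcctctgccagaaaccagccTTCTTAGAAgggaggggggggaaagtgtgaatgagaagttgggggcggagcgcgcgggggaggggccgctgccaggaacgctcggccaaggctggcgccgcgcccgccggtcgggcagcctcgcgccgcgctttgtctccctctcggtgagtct

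Cish, Socs3 and Osm were called higher in Gata1s in 3 of the 4 comparisons and Socs2 in the 2 of R3, while Epor and Jak2 were called lower in E12.5 R3 and neither Stat5 gene was called. In E12.5 R1/2, Cish, Osm, Pim1 and Socs3 were called higher, so 4 of 9 were called higher and 0 lower where 4.95% and 4.6% of all tested genes were. At E14.5 R1/2 Cish, Osm and Socs3 were called higher, 3 of 9 higher and 0 lower against 5% and 5.13%. In E14.5 R3, limma called Cish, Socs2, Socs3, Osm and Pim1 higher, 5 of 9 higher and 0 lower against 16.8% and 20.7%. There edgeR did not call Osm (adjusted p = 0.0616), and it called fewer of all genes, 1537 higher and 1642 lower against 1797 and 2216 in limma. E12.5 R3 differed from the other comparisons in its calls. Socs2 alone of the 9 was called higher (14.2% of all genes were), and Epor, Jak2 and Pim1 were called lower, where 21.7% of all genes were. Socs3 and Osm also lay above wild type there without overlap, but were not called. Over the mean of the 4 comparisons Cish, Osm, Socs2 and Socs3 were called higher (19.7% of all genes higher) and Epor lower (25.6% lower). Upper-quartile scaling turned the split of all calls in E12.5 R3 from 1527 higher and 2322 lower to 2534 and 1597, and over the mean of the 4 from 2115 and 2744 to 2598 and 2034. In R1/2 the median log2 difference of the 9 members was 0.62 at E12.5 and 0.28 at E14.5, beside -0.02 and -0.01 over all tested genes, and in R3 it was 0.09 and 0.43, beside -0.00 and -0.05. Genotypes did not overlap, with Gata1s higher and lower, for 6 and 0 of the 9 members in E12.5 R1/2 (17.2% and 18.8% of all genes) and for 5 and 1 at E14.5 (18.1% and 20.6%). In R3 these counts were 3 and 3 at E12.5 (25.2% and 31%) and 5 and 1 at E14.5 (25.8% and 31.5%).

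**Figure D1:**
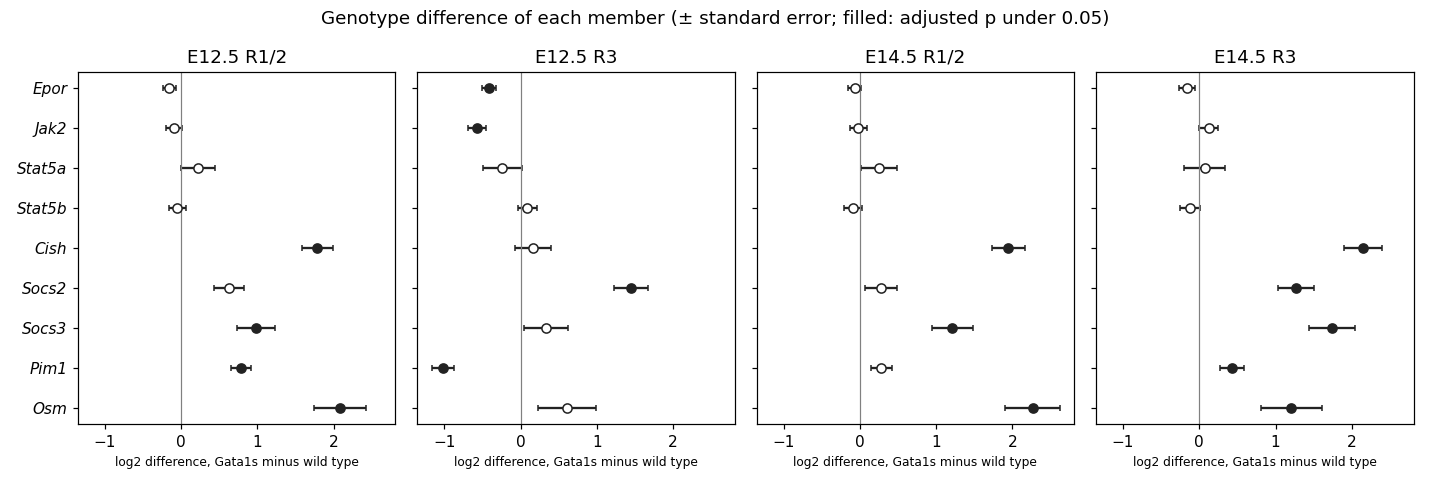
Log2 difference of each tested member, Gata1s minus wild type (x axis), with its standard error in each day and sort. Filled points passed the adjusted p of 0.05: Cish and Osm lie near 2 in both R1/2 comparisons, and Epor, Jak2 and Pim1 lie below 0 in E12.5 R3.

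Cish encodes an SH2 protein that binds the activated receptor and competes with STAT5. In E12.5 R1/2 it had 68.4 and 54.7 normalised counts in wild type and 167, 217, 286 and 200.3 in Gata1s libraries. At E14.5 R1/2 it had 41.7 and 42.3 in wild type and 139, 221 and 153 in Gata1s. The genotypes did not overlap on either day, and the group means were 3.53 and 4.07 times higher in Gata1s. The log2 difference was 1.79 ± 0.21 at E12.5 (limma adjusted p = 4.33e-05) and 1.95 ± 0.22 at E14.5 (adjusted p = 2.6e-05). Within prefixes it was 2.11 (MS) and 1.46 (JC) at E12.5 and 2.10 and 1.71 at E14.5, where the JC value rests on 1 library per genotype and missed the threshold (adjusted p = 0.0634).

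The R3 sort split by day for Cish. At E12.5 wild type libraries had 849, 1296 and 1158 normalised counts and Gata1s libraries 1149.5 and 1476. These overlap, and the log2 difference of 0.16 ± 0.23 was not called (limma adjusted p = 0.619). At E14.5 wild type libraries had 689.8 and 732 and Gata1s libraries 3525 and 3133. Both Gata1s libraries were far above both wild type libraries, 4.68 times by group mean, with a log2 difference of 2.15 ± 0.25 (limma adjusted p = 5.75e-06, edgeR 4.17e-06) and of 2.18 among MS libraries. The change of the genotype difference from E12.5 to E14.5 in R3 was 1.98 ± 0.32 (limma adjusted p = 0.000657).

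**Figure D2:**
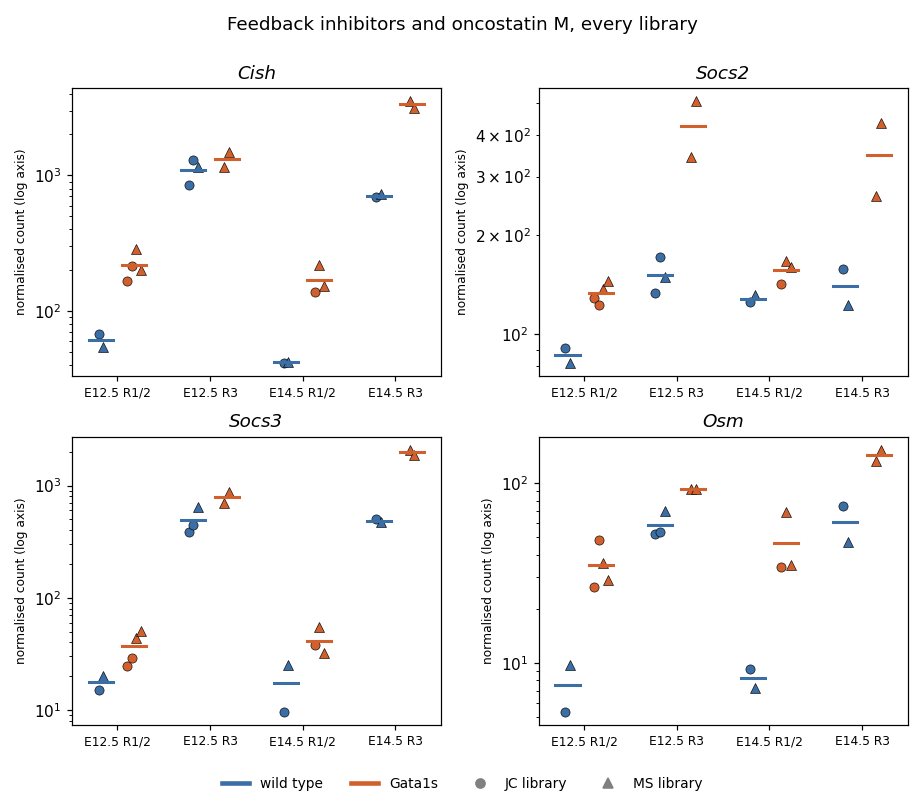
Normalised counts (log axis) of Cish, Socs2, Socs3 and Osm in every library by day and sort, blue for wild type and orange for Gata1s, circles for JC and triangles for MS libraries, with bars at group means. Gata1s libraries lie above wild type for Cish and Osm in both R1/2 groups, and Cish overlaps in E12.5 R3 but not in E14.5 R3.

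Socs3 encodes an inhibitor that binds cytokine receptors and blocks JAK kinases. It was sparse in R1/2, with 15.2 and 20.2 normalised counts in wild type and 24.4, 29.1, 44.1 and 50.9 in Gata1s at E12.5, and 9.68 and 25.4 against 37.9, 54.7 and 31.9 at E14.5. Each of these R1/2 values rests on 21 to 98 reads. Gata1s libraries were above all wild type libraries on both days, by 0.98 ± 0.25 at E12.5 (limma adjusted p = 0.0216) and 1.21 ± 0.27 at E14.5 (adjusted p = 0.00824). The E12.5 call was lost without either wild type library or without Gata1s replicate 4 (adjusted p = 0.101, 0.137 and 0.059). It also missed without the prefix term (adjusted p = 0.105) and among JC libraries (0.77, adjusted p = 0.12), and was 1.19 among MS. The E14.5 call was lost without wild type replicate 1 (0.80, adjusted p = 0.126), and the difference was 0.70 among MS libraries (adjusted p = 0.152) and 1.86 among JC.

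In R3, Socs3 had 382, 441 and 646 normalised counts in wild type and 698 and 869.7 in Gata1s at E12.5. The groups did not overlap, but the log2 difference of 0.33 ± 0.29 was not called (limma adjusted p = 0.384). At E14.5 it had 501 and 472 in wild type and 2087 and 1869.6 in Gata1s, a group mean 4.06 times higher. The difference was 1.74 ± 0.30 (limma adjusted p = 0.000303, edgeR 2.9e-05), and 2.06 among MS libraries. It changed from E12.5 to E14.5 by 1.41 ± 0.40 (adjusted p = 0.0188), and this call was lost under quantile normalisation (adjusted p = 0.125), without the prefix term (0.104) and without Gata1s E12.5 R3 replicate 1, Gata1s E14.5 R3 replicate 1 or wild type E14.5 R3 replicate 2 (0.0787, 0.0521 and 0.0683).

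Socs2 encodes an inhibitor best known for restraining growth hormone signalling. It differed most in R3. At E12.5 R3 it had 134, 172 and 149.5 normalised counts in wild type and 344 and 508 in Gata1s, and at E14.5 157 and 123 against 262 and 436. Every Gata1s R3 library was above every wild type R3 library of its day. The difference was 1.45 ± 0.22 at E12.5 (limma adjusted p = 0.000108) and 1.27 ± 0.24 at E14.5 (limma adjusted p = 0.000527, edgeR 0.00108), and 1.48 and 1.45 among MS libraries. At E14.5 a fit of those 4 libraries alone also gave 1.45. Its prefix term takes up the only JC library, so it rests on 1 wild type library and is no separate check from the MS value.

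In R1/2 the Socs2 groups also did not overlap, but the differences were smaller. At E12.5 it had 90.8 and 82.0 normalised counts in wild type and 129, 123, 137 and 145.1 in Gata1s, and at E14.5 125.1 and 132 against 142, 167 and 160.1. The difference of 0.62 ± 0.20 at E12.5 missed the threshold in limma (adjusted p = 0.0602) and passed it in edgeR (adjusted p = 0.0372), DESeq2 (0.0132) and limma voom (0.0246). At E14.5 it was 0.28 ± 0.21 (limma adjusted p = 0.499). The genotype difference was larger in R3 than in R1/2 by 0.91 ± 0.22 (adjusted p = 0.00755). That was 0.92 among MS libraries, where it missed the threshold (adjusted p = 0.0551).

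Socs1, a strong inhibitor of JAK kinases, had 68 reads over all 20 libraries and was not tested. The 4 Gata1s E12.5 R1/2 libraries held 12, 16, 1 and 6 reads, and the 3 of E14.5 R1/2 held 11, 9 and 1. The wild type R1/2 libraries held 1 and 0 reads at E12.5 and 4 and 1 at E14.5. In normalised counts the genotypes overlap at E14.5. At E12.5 the highest wild type value (0.45) was below the lowest Gata1s value (0.82), but each of these rests on 1 read. No R3 library of either genotype had more than 1 read. A count of 0 allows up to 3 reads, for counting error only. In Gata1s E14.5 R3 replicate 1, which had 0 reads, that is 11.1 normalised counts.

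Osm encodes oncostatin M, a cytokine of the interleukin-6 family and a STAT5 target in blood cells. In R1/2 it had 5.37 and 9.76 normalised counts in wild type and 26.6, 48.5, 35.9 and 28.9 in Gata1s at E12.5, and 9.26 and 7.25 against 34.0, 69.3 and 35.2 at E14.5. No library overlapped the other genotype, and the group means were 4.62 and 5.59 times higher in Gata1s. The wild type values rest on 6 to 22 reads and the Gata1s values on 34 or more. The log2 difference was 2.08 ± 0.34 at E12.5 (limma adjusted p = 0.000797) and 2.26 ± 0.36 at E14.5 (adjusted p = 0.000599). Within prefixes it was 1.63 (MS, adjusted p = 0.0545) and 2.54 (JC) at E12.5 and 2.61 (MS) and 1.77 (JC, adjusted p = 0.164) at E14.5. Osmr, the receptor chain specific to oncostatin M, had 1 read over all 20 libraries.

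Osm in R3 had 52.1, 53.7 and 70.2 normalised counts in wild type and 93.2 and 93.3 in Gata1s at E12.5, and 74.4 and 47.2 against 133 and 154 at E14.5. The groups did not overlap on either day. The E12.5 difference of 0.61 ± 0.38 was not called (limma adjusted p = 0.226). The E14.5 difference of 1.21 ± 0.40 passed in limma (adjusted p = 0.027) and missed in edgeR (0.0616), DESeq2 (0.0524) and limma voom (0.089). It also missed without the low-value filter (adjusted p = 0.0501) and under quantile normalisation (0.0502). A fit of those 4 libraries alone rests on 1 wild type library, since its prefix term takes up the JC one, and gave 1.58. Leaving out Gata1s replicate 1, Gata1s replicate 2 or wild type replicate 2, which had 10 Osm reads, also ended the call (adjusted p = 0.0577, 0.111 and 0.281).

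Markers of other cell types also differed between the genotypes. Of the 10 megakaryocyte markers tested, 5 were called higher in Gata1s R1/2 on each day, 4 in R3 at E12.5 and 7 in R3 at E14.5, and none was lower in these 4 comparisons. The list's summed level was 439 to 497 in wild type against 1056 to 2042 in Gata1s at E12.5 R1/2, 311 to 313 against 896 to 1076 at E14.5 R1/2, 881 to 1395 against 3104 to 3335 in E12.5 R3, and 964 to 1114 against 3857 to 5021 in E14.5 R3. No megakaryocyte marker was without a read in any Gata1s group, and 2 of 12 had none in wild type E14.5 R1/2. The part of these markers in the members' results was not tested.

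Neutrophil and monocyte markers were also higher in Gata1s E12.5 R1/2, with 3 of 12 called, none lower, and sums of 1498 to 3508 against 254 to 1259. None of the 12 was called in the other 3 comparisons in limma, and over the mean of the 4 comparisons 2 were called higher and 0 lower. At E14.5 R1/2 the sums were 805 and 21239.5 in wild type and 5018 to 5353 in Gata1s, which overlap. In E14.5 R3 the sums were 1417 to 3269 in wild type and 822 to 1261 in Gata1s. In E12.5 R3 they were 331 to 662 and 387 to 891. Hepatoblast markers were higher in Gata1s for 3 of 6 in E12.5 R1/2 and 4 of 6 in E12.5 R3, and lower for 4 of 6 in E14.5 R3. Their sums were 69.0 to 357 in wild type and 221 to 1017 in Gata1s, then 793 to 1959.7 and 1062 to 1908, then 331 to 3750.1 and 86.2 to 195. Macrophage markers were called lower for 4 of 8 in E14.5 R3, with sums of 475 to 604 in wild type and 181 to 207 in Gata1s. None was called in the other 3 comparisons, but in E14.5 R1/2 the sums were 136 to 155 in wild type and 84.8 to 104 in Gata1s. At E12.5 the macrophage sums overlap in both sorts. Over the mean of the 4 comparisons 3 of the 8 were called lower and 0 higher. Of 3 endothelial markers 1 was called lower at E12.5 in each sort, with sums of 49.2 to 215 over all groups. Over the mean of the 4 comparisons, however, 2 were called higher and 1 lower. Their median log2 differences at E12.5 and E14.5 were 1.44 and 1.93 in R1/2 and -0.30 and -0.04 in R3. Mast cell and lymphoid markers stayed below the test level, with sums of at most 61.1 and 145.003. The part of these lists in the members' results was not tested.

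Epor, the receptor gene, was lower in Gata1s in 1 of the 4 comparisons. In E12.5 R3 it had 5550.3, 6218 and 5913 normalised counts in wild type and 4313 and 4125 in Gata1s, all below wild type. The difference was -0.42 ± 0.10 (limma adjusted p = 0.00305), -0.49 among MS libraries, and -0.04 under quantile normalisation, where it was not called (adjusted p = 0.731). At E14.5 R3 it had 7322 and 7763 in wild type and 6228 and 6794 in Gata1s, again without overlap, but the difference of -0.16 ± 0.10 was not called (limma adjusted p = 0.222, and 0.0185 among MS libraries alone).

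In R1/2, Epor had 2397 and 1865 normalised counts in wild type and 1803, 2062, 1846 and 1893 in Gata1s at E12.5, and 2175 and 1868 against 2011, 1889 and 1801 at E14.5. The genotypes overlap, and the differences were -0.16 ± 0.09 and -0.07 ± 0.09 (limma adjusted p = 0.323 and 0.738). The mean of the 4 differences was -0.20 ± 0.05 (adjusted p = 0.00302).

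Jak2, which carries the signal from the receptor, was also lower in E12.5 R3 and was called in none of the other 3 comparisons. In E12.5 R3 it had 4734, 5021 and 6189 normalised counts in wild type and 3991 and 3745 in Gata1s, both below wild type. The difference was -0.57 ± 0.12 (limma adjusted p = 0.00122), -0.68 among MS libraries, and -0.22 under quantile normalisation, where it was not called (adjusted p = 0.0872). In E14.5 R3 the wild type libraries held 6026 and 8471 and the Gata1s libraries 8157 and 8448, which overlap, with a difference of 0.12 ± 0.12 (limma adjusted p = 0.46). In R1/2 its values ran from 1385 to 1972 over both days and genotypes, with differences of -0.10 ± 0.10 and -0.02 ± 0.11 (limma adjusted p = 0.682 and 0.943). The mean of its 4 differences was -0.14 ± 0.06, which limma did not call (adjusted p = 0.0589) but which was called among MS libraries (-0.16, adjusted p = 0.00314) and in DESeq2 (-0.15, adjusted p = 0.0422). The change of the R3 difference between days, 0.70 ± 0.16, was called (adjusted p = 0.00671) but not under quantile normalisation (0.34, adjusted p = 0.086).

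Stat5a and Stat5b, neighbouring paralogs on chromosome 11, encode the transcription factors that JAK2 phosphorylates. The sources used here do not give how reads matching both were counted, so their separate values are uncertain. In E12.5 R1/2 Stat5a had 1361 and 1343 normalised counts in wild type and 1661, 1663, 1520.1 and 1475 in Gata1s, which do not overlap, but the difference of 0.22 ± 0.22 was not called (limma adjusted p = 0.669). In E14.5 R3, where it was lowest, it had 91.0 and 51.9 in wild type and 66.4 and 59.3 in Gata1s. In E14.5 R1/2 Stat5b had 1957 and 1943 in wild type and 1861, 1736 and 1753 in Gata1s, all below wild type, with a difference of -0.09 ± 0.12 (limma adjusted p = 0.723). In E14.5 R3 it had 670.0 and 463 in wild type and 520.0 and 436 in Gata1s, which overlap, as do the Stat5a values. No genotype difference of Stat5a or Stat5b passed in the limma fit of all libraries, while a limma fit of the E12.5 R1/2 libraries alone called Stat5a (0.22, adjusted p = 0.0323). The means of the 4 differences were 0.08 ± 0.13 for Stat5a (limma adjusted p = 0.656) and -0.04 ± 0.06 for Stat5b (adjusted p = 0.603).

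Pim1 encodes a survival kinase induced by STAT5, and it moved in opposite directions in the R3 sorts of the 2 days. In E12.5 R3 it had 11059.8, 14617 and 18796 normalised counts in wild type and 8356 and 8688 in Gata1s. In E14.5 R3 it had 19467 and 23184 in wild type and 32919 and 32359 in Gata1s. The Gata1s libraries thus lay below all wild type libraries on the first day and above them on the second. The differences were -1.02 ± 0.15 (limma adjusted p = 6.22e-05) and 0.43 ± 0.16 (limma adjusted p = 0.0401, edgeR 0.0353), and -1.14 and 0.49 among MS libraries. The change between days, 1.45 ± 0.20, was called (adjusted p = 0.000267) and remained so under quantile normalisation (0.87, adjusted p = 0.0139). The E14.5 call was lost without the low-value filter (adjusted p = 0.0636), under quantile normalisation (0.259) and without the prefix term (0.0534). It was also lost without any 1 of 5 R3 libraries (wild type E14.5 replicate 2 and all 4 Gata1s libraries), with differences of 0.34 to 0.44. A fit of the E14.5 R3 libraries alone gave 0.49, but rests on 1 wild type library, since its prefix term takes up the JC one.

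In R1/2, Pim1 had 693 and 959 normalised counts in wild type and 1101, 1417, 1701 and 1458 in Gata1s at E12.5, without overlap. At E14.5 it had 872 and 1304 against 1261, 1570.4 and 1251, which overlap. The difference was 0.78 ± 0.13 at E12.5 (limma adjusted p = 0.000999), with 0.72 among MS and 0.85 among JC libraries (adjusted p = 0.057), and 0.28 ± 0.14 at E14.5 (adjusted p = 0.251). The genotype difference was lower in R3 than in R1/2 by -0.83 ± 0.14 over the mean of days (adjusted p = 0.000828). This comparison also moved Osm by -1.27 ± 0.37 (adjusted p = 0.024) and Cish by -0.71 ± 0.23 (adjusted p = 0.036, edgeR 0.0541). For Pim1 and Cish the days went opposite ways. By group means, Pim1 in Gata1s was 1.72 times wild type in R1/2 and 0.57 times in R3 at E12.5, but 1.25 and 1.53 times at E14.5. Cish was 3.53 and 1.19 times wild type at E12.5, but 4.07 and 4.68 times at E14.5. The sort dependence within each day was not tested. Of the 9 members 3 were thus called lower and Socs2 higher, while 12.9% and 8.81% of all genes were, and upper-quartile scaling turned the split of all calls from 944 higher and 1380 lower to 1238 and 929. The Cish call was lost without any 1 of 9 libraries (adjusted p up to 0.0952), in limma voom (0.132), without the prefix term (0.0651), under upper-quartile scaling (0.0628), without the low-value filter (0.0566) and with a pseudocount of 5 (0.0512). The Pim1 call was lost without the prefix term (adjusted p = 0.0545), and the Osm call among MS libraries (0.0721), with a pseudocount of 5 (0.0573) and without wild type E12.5 R1/2 replicate 1 or wild type E12.5 R3 replicate 3 (0.0842 and 0.0564).

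**Figure D3:**
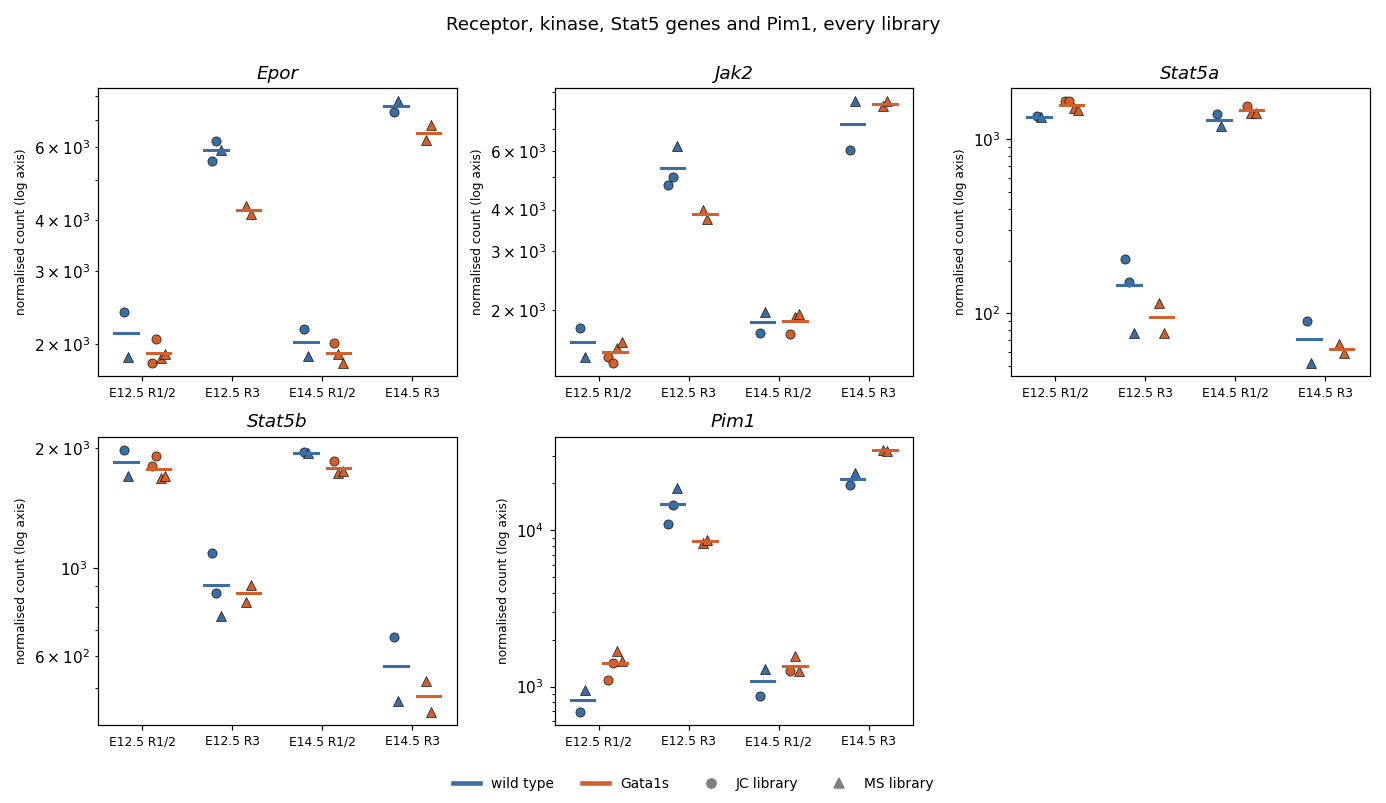
Normalised counts (log axis) of Epor, Jak2, Stat5a, Stat5b and Pim1 in every library by day and sort, blue for wild type and orange for Gata1s, circles for JC and triangles for MS libraries, with bars at group means. Pim1 lies below wild type in Gata1s E12.5 R3 (8356 and 8688) and above it in E14.5 R3 (32919 and 32359), and both Stat5 genes are lower in R3 than in R1/2.

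In R3, the genotype difference changed between days for 4 of 9 members, Cish, Jak2, Pim1 and Socs3, all toward higher values at E14.5, while 13.5% of all genes changed that way. No member changed toward lower values, where 9.54% of all genes did. Quantile normalisation turned the split of all calls from 1445 higher and 1023 lower to 887 and 1142. In R1/2, limma called 0 of the 9 between days, where 0.00933% of all genes (1 gene) were higher and 0% lower, and edgeR called 2 genes and DESeq2 10 higher and 8 lower, again with 0 members. The only member with an unadjusted limma p under 0.05 there was Pim1, at -0.50 ± 0.19 (unadjusted p = 0.0176).

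From R1/2 to R3, the receptor, the kinase and the target genes rose in both genotypes and both Stat5 genes fell. All 9 members were called in wild type and in Gata1s, 7 higher and 2 lower, where 40.1% and 44.7% of all genes were called higher and lower in wild type and 39.6% and 43.6% in Gata1s. Socs3 rose most, by 4.82 ± 0.20 in wild type and 4.76 ± 0.20 in Gata1s, and its wild type E12.5 values went from 15.2 and 20.2 to 382, 441 and 646 normalised counts. Pim1 rose by 4.26 ± 0.10 and 3.44 ± 0.10, and Cish by 4.10 ± 0.16 and 3.39 ± 0.16. For these 3 genes every R3 library was above every R1/2 library of its genotype. Osm rose by 2.78 ± 0.26 and 1.52 ± 0.26, Jak2 by 1.86 ± 0.08 and 1.70 ± 0.08, and Epor by 1.68 ± 0.07 and 1.50 ± 0.07.

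Stat5a fell by 3.80 on the log2 scale in wild type and by 4.12 in Gata1s (standard errors 0.18 and 0.17), and Stat5b by 1.44 and 1.38 (standard errors 0.09 and 0.08). In wild type at E12.5, Stat5a went from 1361 and 1343 normalised counts to 207, 152 and 77.0, and Stat5b from 1983 and 1703 to 1093, 866 and 757. Every R3 library was below every R1/2 library for both. Stat5a made up 38.0 to 48.0% of the sum of both Stat5 values in R1/2 libraries and 7.82 to 15.9% in R3 libraries, as a share of normalised counts not corrected for length. Socs2 rose by 0.46 ± 0.15 in wild type (limma adjusted p = 0.0118) and by 1.37 ± 0.15 in Gata1s (adjusted p = 3.13e-07). Its wild type call was lost under upper-quartile scaling (0.10, adjusted p = 0.577), among MS libraries (0.38, adjusted p = 0.195) and without wild type E14.5 R3 replicate 1 (0.36, adjusted p = 0.0616).

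Scaling moved the sort differences. Upper-quartile scaling shifted the median of all genes in R3 minus R1/2 to -0.45 in wild type and -0.35 in Gata1s, from -0.09 and -0.08, and the split of all calls from 4298 higher and 4797 lower to 3192 and 6003 in wild type and from 4243 and 4679 to 3370 and 5677 in Gata1s. Quantile normalisation gave rises of 0.91 for Epor and 1.14 for Jak2 in wild type. No member changed sign between sorts under these scalings.

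**Figure D4:**
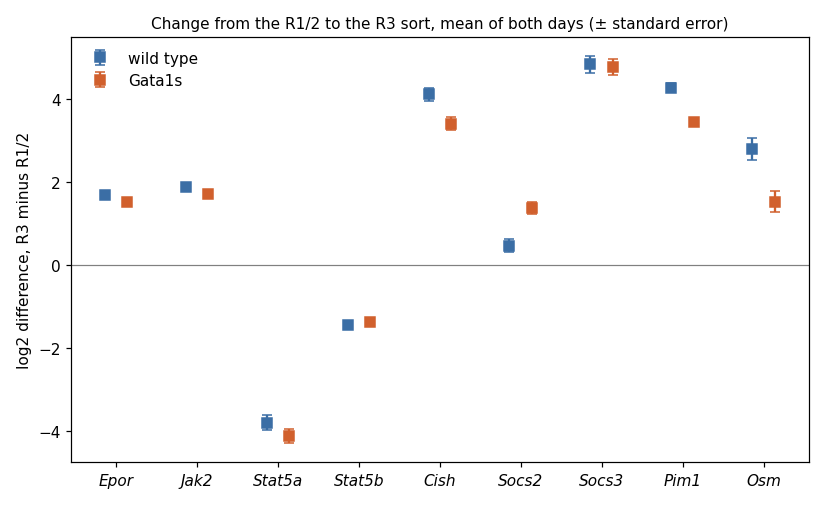
Log2 difference of each tested member, R3 minus R1/2 (y axis), as the mean of both days with its standard error, blue for wild type and orange for Gata1s. Socs3, Pim1 and Cish rose by more than 3 in both genotypes, and Stat5a fell by 3.80 and 4.12.

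Between days, the members moved less. In wild type Pim1 (0.44 ± 0.10, limma adjusted p = 0.00449) and Jak2 (0.30 ± 0.08, adjusted p = 0.0104) were higher at E14.5, and Cish (-0.58 ± 0.16, adjusted p = 0.0126), Stat5b (-0.28 ± 0.09, adjusted p = 0.0204) and Stat5a (-0.48 ± 0.18, adjusted p = 0.0493) were lower, over the mean of sorts. These are 2 higher and 3 lower of 9, where 17.9% and 14.3% of all genes were called, 1919 and 1533 against 1311 and 2538 under upper-quartile scaling. In Gata1s, Pim1 (0.91 ± 0.09), Socs3 (0.71 ± 0.19), Jak2 (0.69 ± 0.08), Cish (0.49 ± 0.15) and Epor (0.32 ± 0.06) were higher at E14.5 and Stat5b was lower (-0.41 ± 0.08). Adjusted limma p-values of these 6 ran from 1.24e-06 to 0.0119, where 27.3% and 26.7% of all genes were called higher and lower, 2931 and 2867 against 2071 and 4322 under upper-quartile scaling. Epor in Gata1s changed sign under quantile normalisation (-0.07, adjusted p = 0.27), which also ended the Jak2 (0.08) and Pim1 (0.22) calls in wild type and the Cish call in Gata1s (0.21). Leaving out 1 library ended the wild type calls of Stat5a (15 libraries), Stat5b (3), Jak2 (2) and Cish (1), at adjusted p up to 0.226, and the Gata1s call of Cish without E12.5 R3 replicate 1 (adjusted p = 0.0712).

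Other genes that carry or limit the receptor's signal were counted on lists of pathway genes. In each comparison only up to 3 called genes per list, those with the smallest adjusted p, are named. A comparison not given for a gene thus does not mean that the gene did not differ there. Of 27 adaptors, kinases and phosphatases, 6 were higher and 0 lower in Gata1s R1/2 at E12.5 and 4 and 1 at E14.5, and in R3 7 and 3, then 10 and 2. Their median log2 differences in this order were 0.10, 0.07, 0.04 and 0.20. Over all tested genes, in the same order, 4.95%, 5%, 14.2% and 16.8% were called higher and 4.6%, 5.13%, 21.7% and 20.7% lower, which is the background for this and the next 3 lists. Cbl, a ubiquitin ligase that marks activated receptors for degradation, was higher in both R1/2 comparisons, with 532 to 571 in wild type against 854 to 1196 in Gata1s at E12.5 (0.79 ± 0.17, limma adjusted p = 0.00782) and a difference of 0.95 ± 0.18 at E14.5. It was also higher in E14.5 R3 (1.22 ± 0.21, edgeR adjusted p = 0.00148). The mean of its 4 differences was 0.99 ± 0.10 (limma adjusted p = 7.14e-07). Ptpn11, the phosphatase SHP2, was higher in R1/2 by 0.39 ± 0.06 at E12.5 and 0.46 ± 0.06 at E14.5, and Akt1, a survival kinase, by 0.33 ± 0.07 and 0.34 ± 0.08.

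Pik3r1, the regulatory subunit of PI3 kinase, was lower in R3 on both days. Its normalised counts were 2678 to 3989 in wild type against 745 to 866 in Gata1s at E12.5, and 6708 to 9996 against 1913 to 2172 at E14.5, without overlap. It fell by 2.14 (standard error 0.15, limma adjusted p = 7.11e-08) and by 2.09 (standard error 0.16, adjusted p = 5.56e-08) on the log2 scale. Inpp5d, the inositol phosphatase SHIP1, was higher in E14.5 R3, with 387 to 402 in wild type and 863 to 969.8 in Gata1s (1.30 ± 0.12, adjusted p = 5.97e-07). Vav1, an exchange factor of blood cells, was higher in E12.5 R3 (2.09 ± 0.33), with 18.1 to 38.5 against 60.4 to 148, and Akt2 was lower there (-0.49 ± 0.10). From R1/2 to R3 Ptpn6, the phosphatase SHP1 that acts on the receptor, changed by -2.89 in wild type and -3.68 in Gata1s.

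Of 16 other JAK, STAT and SOCS genes 15 were tested, and in the same order 1, 2, 4 and 4 were higher and 0, 1, 2 and 3 lower. Their median log2 differences were -0.02, 0.06, 0.07 and -0.04. Stat6 was higher in R1/2 by 0.37 ± 0.07 at E12.5 and 0.36 ± 0.07 at E14.5, and by 0.54 ± 0.08 in E14.5 R3. Stat3, the STAT of interleukin-6 type cytokines, was higher at E14.5 by 0.48 ± 0.11 in R1/2 and by 0.70 ± 0.13 in R3. Jak1 was lower in E12.5 R3 (-1.002 ± 0.15, limma adjusted p = 8.14e-05), with 2465 to 3199 in wild type against 1461 to 1466 in Gata1s, and in E14.5 R1/2 (-0.56 ± 0.14, adjusted p = 0.0177). Tyk2 was lower in E14.5 R3 (-1.01 ± 0.15), with 123 to 159 against 59.3 to 66.4. Socs6 was higher in E12.5 R3 (0.57 ± 0.13). Socs5 was called higher there too, with 0 to 13.4 in wild type and 23.3 to 41.4 in Gata1s (limma adjusted p = 0.00369), but its fitted difference is unsteady at these low values, 3.12 ± 0.74 in all libraries and 5.01 among MS.

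Of 20 other erythropoietin or STAT5 targets 17 were tested, and in the same order 4, 3, 2 and 4 were higher and 1, 1, 6 and 3 lower. Their median log2 differences were 0.01, 0.01, -0.12 and 0.22. Ccnd2, the cyclin D2 gene, rose in E12.5 R3 from 269.6 to 342 in wild type to 1706 to 2030.1 in Gata1s (2.81 ± 0.23, limma adjusted p = 4e-07) and by 2.15 ± 0.24 in E14.5 R3. Trib3, a pseudokinase also induced by cell stress, was higher in both R1/2 comparisons (2.93 ± 0.40 and 3.74 ± 0.43) and in E14.5 R3 (3.16 ± 0.48). Ccnd3, the cyclin D3 gene, was higher in R1/2 by 0.67 ± 0.09 at E12.5 and 0.72 ± 0.10 at E14.5. Bcl2l1, which encodes the survival protein BCL-XL, was lower in E12.5 R3, with 8869 to 15989 in wild type and 3070.0 to 3165 in Gata1s (-2.33 ± 0.26, adjusted p = 6.14e-06). Tfrc, the transferrin receptor gene and also an erythroid marker here, was lower in R1/2 on both days (-0.48 ± 0.09 and -0.68 ± 0.09) and in E12.5 R3 (-1.04 ± 0.10). The mean of its 4 differences was -0.70 ± 0.05 (limma adjusted p = 1.26e-08). Spry1, an inhibitor of growth factor signalling, was higher in E14.5 R3 (3.39 ± 0.43), with 4.72 to 26.5 against 99.7 to 125.4.

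Of 18 related receptors 13 were tested, and in the same order 1, 0, 2 and 6 were higher and 0, 0, 3 and 2 lower, with median log2 differences of 0.35, 0.31, 0.24 and 0.86. edgeR also called each of the 12 list genes named for E14.5 R3 (adjusted p from 9.66e-08 to 0.00758). Csf2ra, a chain of the GM-CSF receptor, was higher in E12.5 R3 (2.31 ± 0.46), with 4.53 to 17.9 in wild type against 33.4 to 56.2 in Gata1s. Tfr2, which binds the erythropoietin receptor, was lower there (-0.82 ± 0.12), with 2309 to 2761 against 1381 to 1382. In E14.5 R3, Igf1r (0.86 ± 0.14) and Insr (1.02 ± 0.21) were higher and Il6ra was lower (-2.02 ± 0.50). Kit, the stem cell factor receptor, changed from R1/2 to R3 by -5.31 in wild type and -5.18 in Gata1s.

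The genes most like each member over the 20 libraries mostly shared its difference between sorts, so the values describe that difference and carry no test. By Pearson r of log2 values, Arhgap19 was most like Epor (0.995), Usp32 most like Jak2 (0.997), Ptpn7 most like Stat5a (0.996) and Vars2 most like Stat5b (0.993). Ston2 was most like Cish (0.982), Plek2 most like Socs3 (0.985) and Nfe2 most like Pim1 (0.995). Socs2 and Osm had less close partners, Pias3 (0.940) and Fdps (0.931). Among the members Cish had an r of 0.964 with Socs3 and 0.911 with Osm, and Socs2 had 0.452 with Epor.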

How the data were processed

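RNA of 20 libraries was poly-A selected and sequenced as directional libraries, per the labels' protocols. The authors deposited 1 signal value per gene and library, a normalised count. The submitters' processing notes list Bowtie2, DESeq2, HTSeq, TopHat2 and Trim Galore, and mm9 and mm10 as builds, without their roles. ATAC and CUT&RUN samples were not analysed here. Dropped were 27 of 23420 entries with a date for a name (0.199 to 0.359% of the values). Also dropped was 1 column, JC by its prefix and named as Gata1s R3 of E12.5, that no sample's labels match.

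Dividing by each library's smallest value above 0 gave whole reads for 100.0% of values (tolerance 0.001). edgeR 4.0.16, DESeq2 1.42.0 and limma voom were run on these reads. The main test was limma 3.58.1 (R 4.3.3, empirical Bayes with a trend) on log2 of the normalised count plus 1, for the 10720 genes whose mean reached 10, with 8 group means and the prefix (11 residual degrees of freedom, 15.8 with the prior). This scale makes fold changes of low genes too small. In simulated data for E14.5 R3, 24.8% of limma's calls were false against 3.23% of edgeR's. For this reason edgeR values are given for the E14.5 R3 calls of members and of named list genes. Counts of markers and of list genes in E14.5 R3 are from limma only. The day changes in R3 use the same groups and are given from limma only. Where the labels or files name no animal, a library is the replicate, and replicates differed by more than counting error in all 17 pairs (chi-square per gene at least 2.57).

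Named are all members, up to 3 called genes per pathway list and comparison by smallest adjusted p, and the genes most like each member, fewer of them where space is short. A gene under this rule is not reported here. Of 171 list entries 170 matched. Members and lists were chosen with earlier results of these data known. Other settings are given after the results.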

Additional observations from a re-analysis of the deposited data

Results flagged for a closer look

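The genotype difference depended on the sort for 4 members and on the day within R3 for 4, each by a test of the difference itself in limma. Between sorts (R3 minus R1/2, log2), it changed by -0.71 for Cish, -1.27 for Osm, -0.83 for Pim1 and 0.91 for Socs2. Among these, limma did not call Cish under upper-quartile scaling (adjusted p = 0.0628), Osm among MS libraries (0.0721) or Pim1 without the prefix term (0.0545), edgeR did not call Cish (0.0541), and Socs2 was not called among MS libraries (adjusted p = 0.0551 in limma). For Cish and Pim1, the ratio of Gata1s to wild type group means fell from R1/2 to R3 at E12.5 but rose at E14.5. Between days in R3 (E14.5 minus E12.5), the genotype difference changed by 1.98 for Cish, 0.70 for Jak2, 1.45 for Pim1 and 1.41 for Socs3. Quantile normalisation ended the Jak2 and Socs3 calls (adjusted p = 0.086 and 0.125). Erythroid marker sums differed between the genotypes in E12.5 R3 (358144 to 361981 in Gata1s, 645036 to 942449 in wild type) and overlapped in E14.5 R3 (1324811 to 1333933 and 1242515 to 1826122), and their part in the day difference was not tested.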

How the results depend on the processing

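The number of members called moved by more than 1.5 times under some settings. Among JC libraries alone it was 2 instead of 4 in E12.5 R1/2 and 1 instead of 3 in E14.5 R1/2. Under quantile normalisation it was 2 instead of 4 in E12.5 R3, 3 instead of 5 in E14.5 R3, 3 instead of 5 between days in wild type, and 2 instead of 4 for the day dependence in R3. In E14.5 R3 it was 3 without a filter on low values, and a fit of those groups alone called fewer but rests on 1 wild type library. Between days in wild type it was 3 without the prefix term or among MS libraries and 2 in a fit of the groups compared. For the sort dependence it was 2 instead of 4 with a pseudocount of 5 or without the prefix term. The cause was not tested.

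Deviations of same-numbered wild type and Gata1s libraries from their group means correlated by at most 0.10. This cannot show whether R1/2 and R3 libraries came from the same livers, a pairing that was not checked. With the replicate block 2 members were called in E12.5 R3, 3 in E14.5 R3 and 2 for the sort dependence. Not called with it were Epor (-0.30, adjusted p = 0.151) and Jak2 (-0.54, 0.0518) in E12.5 R3, Osm (0.0598) and Pim1 (0.0509) in E14.5 R3, Socs3 in E12.5 R1/2 (0.127), and Cish (0.434) and Osm (0.208) for the sort dependence.

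Leaving out 1 library at a time gave 3 to 5 members called in E14.5 R3, 2 to 6 between days in wild type and 2 to 5 for the sort dependence. Ranges that crossed 0 belonged to differences not called. They were -0.018 to 0.34 for Cish in E12.5 R3, -0.37 to 0.17 and -0.029 to 0.32 for Jak2 in E12.5 R1/2 and E14.5 R3, and -0.21 to 0.028 and -0.33 to 0.042 for Stat5b in E14.5 R1/2 and R3. For Stat5a they were -0.00036 to 0.45 in E12.5 R1/2, -0.67 to 0.049 in E12.5 R3, -0.18 to 0.27 in E14.5 R3 and -0.058 to 0.15 over the mean of 4.

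Of 58 called member results, 1 reversed, Epor between days in Gata1s under quantile normalisation (-0.072). Of their 752 alternatives 692 kept direction and call and 59 lost the call, as did 49 of 1160 fits without 1 library. Uncalled differences reversed among MS libraries for Epor and Jak2 in E12.5 R1/2 (0.0034 and 0.11). They also did for Jak2 (-0.029) and Stat5b (0.042) in E14.5 R3 and Stat5a (0.28) in E12.5 R3. Fits of these R3 groups alone gave the same values, since the prefix term leaves only their MS libraries to compare. Without the prefix term, uncalled differences reversed for Jak2 in E14.5 R1/2 (0.0070), Stat5b in E12.5 R3 (-0.052) and Stat5a in E14.5 R3 (-0.13) and over the mean of 4 (-0.059). Stat5a in E14.5 R3 was -0.071 with the replicate block, -0.14 in edgeR, -0.11 in DESeq2 and -0.17 in voom, and over the mean of 4 -0.044, -0.021 and -0.076 in these tools. Stat5b over the mean of 4 was 0.015 under upper-quartile scaling and 0.017 among MS libraries. Depth limits Socs1, and Osm and Socs3 in R1/2.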
